A study of Bos taurus with 8 samples.

Results

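The nuclear receptor genes are described here in chondrocytes of bovine articular cartilage. They were chosen as 46 gene symbols of the family, all of which were found among the 24596 genes of the deposited count table. Wild Type calves 1 to 2 weeks old gave cartilage from the knee joint, from which a superficial and a deep slice were cut, and chondrocytes of the superficial zone (SZCs) and of the deep zone (DZCs) were cultured for 3 days in DMEM/F12 medium with 10% FBS before RNA-Seq. No further treatment was applied to either zone, and 2 libraries were made per zone. The comparison of SZCs with DZCs asks which genes set the lubricin-producing surface cells apart from the cells below them. The study's methods call the replicates biological duplicates, and neither they nor the labels say which joint or animal each came from.

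Nuclear receptors are transcription factors that carry a zinc finger DNA-binding domain and a pocket for small fat-soluble ligands such as steroids, thyroid hormone, retinoic acid, vitamin D, fatty acids and sterols. Ligand binding swaps corepressor proteins for coactivators on the target gene, whereas the orphan members work without a known natural ligand and are controlled mainly by how much of them is made. In cartilage, thyroid hormone and retinoids are known to drive chondrocyte maturation in the growth plate, and glucocorticoids and vitamin D also act on chondrocytes.

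Levels are given as CPM, which are counts relative to the library's total after scaling by the trimmed mean of *M* values (TMM) of edgeR, and values are always in the order replicate 1, replicate 2. Since counts were not divided by transcript length, levels are compared between libraries and never between genes. The libraries held 19918970 to 21890549 counts each. A level of 3 counts, at or below which a gene was regarded as not detectable, equals 0.129 to 0.187 CPM. The zones were compared with the exact test of edgeR on all 12857 genes that passed its filter on low counts, and a gene was called at a Benjamini–Hochberg adjusted p-value (FDR) below 0.05. Of the genes tested, 2.93% were called, 2.23% higher in SZCs and 0.700% higher in DZCs. Calls were higher in SZCs in 76.1% of cases, and in 86.7% with scaling by library totals and no TMM.

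Marker genes were read beside the zone labels. The study names the 5 superficial zone markers and *CREB5* as higher in SZCs from these same libraries, so that they are no independent check. All 5 superficial zone markers were called higher in SZCs, including *PRG4*, which encodes lubricin, at 3164 and 2023 CPM in SZCs and 15.3 and 61.5 CPM in DZCs. *CREB5*, the transcription factor for which the series is titled, was at 47.0 and 32.4 CPM in SZCs and 1.24 and 1.97 CPM in DZCs. All 6 chondrocyte markers were present in every library, although *COL2A1* alone took 24.5% of the counts of DZC replicate 1 against 6.31% to 12.9% in the other libraries. DZC replicate 2 stood apart by *ALPL*, *IBSP* and *SP7* of the 5 bone-forming cell markers. They had 445, 268 and 140 counts there and at most 10, 2 and 8 counts in the other libraries. *BGLAP* and *DMP1*, the rest of that list, did not share this rise. The summed level of the chondrocyte markers was 118175 and 118773 CPM in SZCs against 473256 and 183159 CPM in DZCs, with all 6 fold changes below 0. No chondrocyte marker was called by edgeR's exact test, with 2 at an unadjusted p-value below 0.05, and DESeq2 called 1. The summed level of the 5 fibroblast markers was 16483 and 24701 CPM in SZCs against 3311 and 13297 CPM in DZCs, so that both SZC libraries lay above both DZC libraries. The part of these shifts in the receptor differences was not tested.

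Of the 46 nuclear receptor genes, 28 had enough counts to be tested. The test called 4 of them, *NR4A1*, *NR4A2*, *NR4A3* and *ESR1*, and all 4 were higher in SZCs. The study, from the same libraries, already lists the NR4A genes among its regulators higher in SZCs, and *ESR1* is not in that list. None was called higher in DZCs, where 1 receptor reached an unadjusted p-value below 0.05, by edgeR's exact test, its quasi-likelihood test and DESeq2 alike. These 4 are 14.3% of the receptors tested, beside 2.93% of all genes tested. Both SZC libraries lay above both DZC libraries for 10 receptors, where 21.1% of all genes tested did so, and both DZC libraries lay above both SZC libraries for 3, where 20.5% of all genes did so. Over the 28 receptors the median log2 fold change of SZCs over DZCs was 0.08, and over all genes tested it was −0.04. A bulk library cannot tell a change in RNA per cell from a change in the number of cells that make it.

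**Figure D1:**
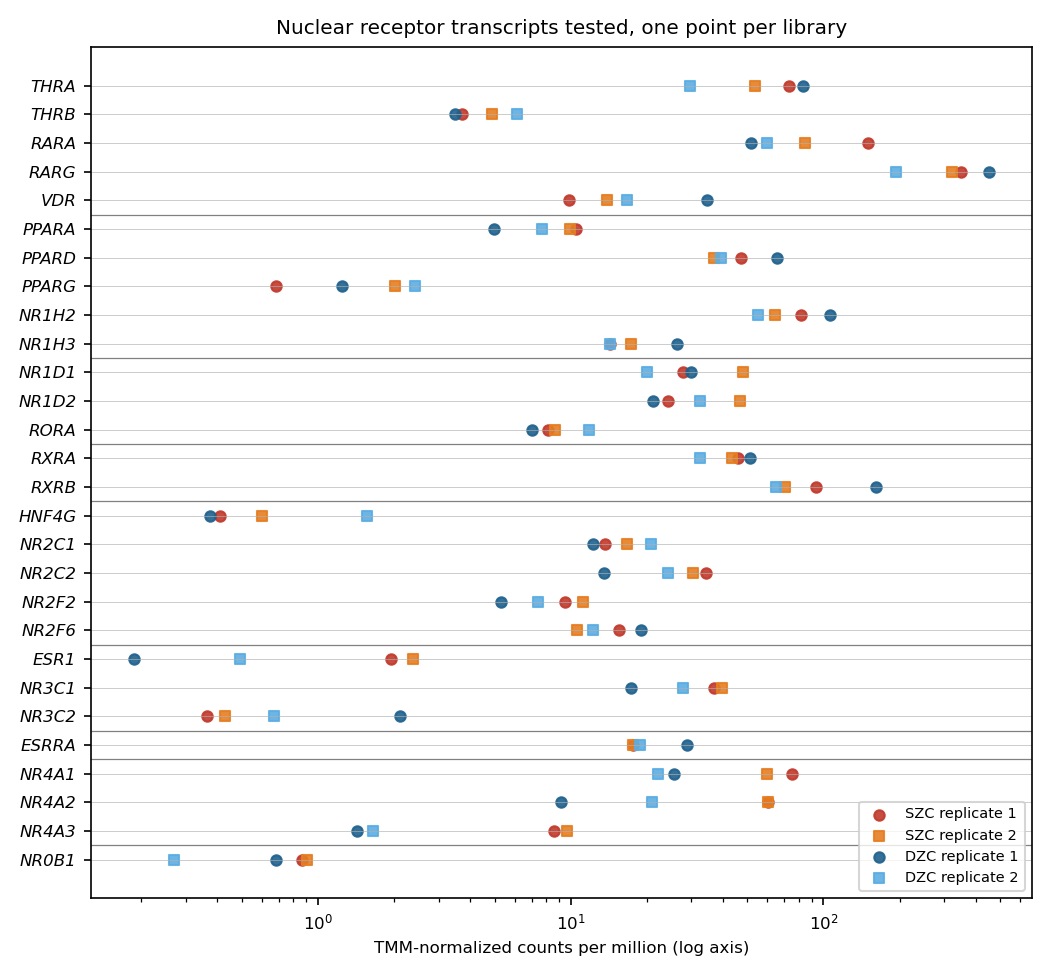
Levels of the 28 nuclear receptor genes tested, one point per library on a log axis in TMM-normalized CPM, with lines between receptor groups. The red and orange SZC points lie to the right of the blue DZC points for *ESR1*, *NR4A1*, *NR4A2* and *NR4A3*, and the colours are mixed for most other receptors.

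The NR4A receptors are orphan receptors that act as immediate early genes, whose transcripts appear soon after growth factor, cAMP, mechanical or inflammatory signals. All 3 members were called higher in SZCs. *NR4A1* (ENSBTAG00000000507), also known as Nur77, was measured at 75.1 and 60.0 CPM in SZCs and at 25.7 and 22.2 CPM in DZCs. Both SZC libraries were well above both DZC libraries, and the replicates of each zone were close to each other. The mean was 67.6 ± 10.7 CPM in SZCs and 24.0 ± 2.45 CPM in DZCs (SD, n = 2 each), a 2.82-fold difference with a log2 fold change of 1.50 ± 0.35 (SE) and FDR 0.0022 (edgeR exact test).

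*NR4A2* (ENSBTAG00000003650), or Nurr1, was at 60.4 CPM in both SZC libraries and at 9.14 and 21.0 CPM in DZCs. The SZC libraries were alike, while the DZC libraries differed 2.29-fold from each other and both stayed below the SZC level. The log2 fold change was 2.00 ± 0.48 (SE), or 4.002-fold, at FDR 0.0041 (edgeR exact test). *NR4A3* (ENSBTAG00000001864), or Nor1, was at 8.58 and 9.69 CPM in SZCs and at 1.43 and 1.66 CPM in DZCs. Here too the zones did not overlap, and the replicates of a zone were within 1.16-fold of each other. This receptor had the largest fold difference of the 3, 5.88-fold, with a log2 fold change of 2.56 ± 0.53 (SE) and FDR 0.00048 (edgeR exact test).

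Ratios within a library were read for the 3 genes. Counts of *NR4A3* per count of *NR4A1* were 0.114 and 0.162 in SZCs and 0.0557 and 0.0746 in DZCs, without overlap, whereas *NR4A2* per *NR4A1* was 0.804 and 1.01 in SZCs and 0.356 and 0.944 in DZCs, with overlap. *NR4A3* per *NR4A2* overlapped as well, at 0.142 and 0.160 in SZCs and 0.156 and 0.0791 in DZCs. With 2 libraries against 2, an exact permutation test of a single ratio cannot give a p-value below 0.333, and these ratios are given as a description.

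The calls of the NR4A genes depended on the test. They held under 6 of 7 other analyses of the same 4 libraries and were lost under the quasi-likelihood test of edgeR, which called no gene at all and gave them FDRs between 0.162 and 0.257. Without SZC replicate 1 or without SZC replicate 2 none of the 3 was called, with FDRs of 0.153 or more in edgeR's exact test, although each stayed higher in SZCs with log2 fold changes from 1.32 to 2.64. The log2 fold change of *NR4A2* moved to 1.53 without DZC replicate 1 and to 2.74 without DZC replicate 2, where it kept its call.

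**Figure D2:**
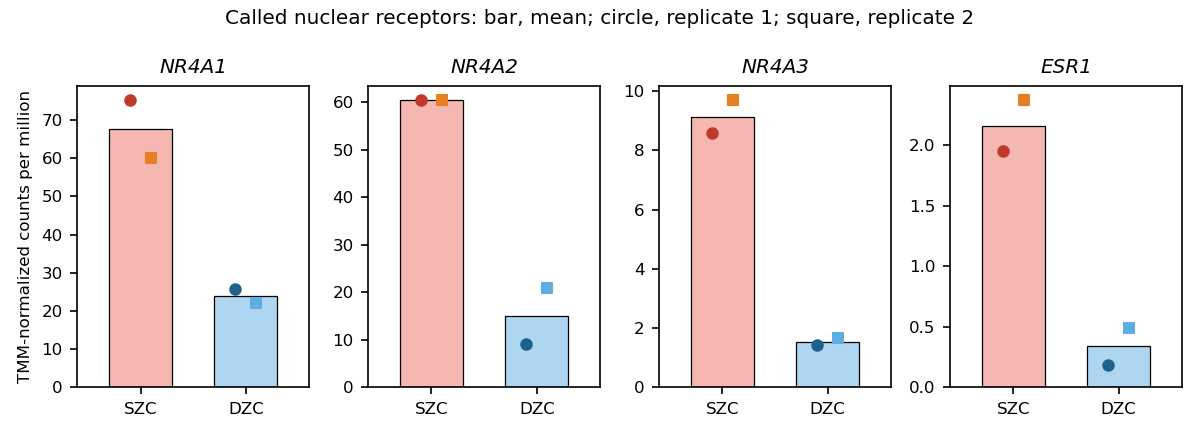
The 4 nuclear receptor genes called at an FDR below 0.05, with bars for the mean TMM-normalized CPM of each zone (n = 2), circles for replicate 1 and squares for replicate 2. Both SZC points lie above both DZC points in each panel, and the vertical axes differ between panels and start at 0.

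Other immediate early genes were read beside the NR4A family. Of 10 such genes, a list that does not hold *DUSP1* (given with the glucocorticoid targets), all were tested and 1 was called, beside 2.93% of all genes. This was *EGR3*, a zinc finger factor induced by the same kinds of signal, at 4.13 and 0.990 CPM in SZCs and 0.249 and 0.134 CPM in DZCs (log2 fold change 3.73 ± 1.05 (SE), FDR 0.032, edgeR). Its SZC replicates were unequal, its DZC libraries held 4 and 3 counts, and it passed the filter through its SZC libraries. The call was lost without SZC replicate 1 (FDR 1, log2 fold change 2.35) and without SZC replicate 2 (FDR 0.058, log2 fold change 4.41). *EGR1*, from the same family, was at 519 CPM in SZC replicate 1 but at 62.6 CPM in SZC replicate 2, and at 113 and 26.6 CPM in DZCs, so that the zones overlapped (FDR 0.61). It was called without SZC replicate 2 (FDR 0.026) and without DZC replicate 1 (FDR 0.035). *JUNB*, a subunit of the AP-1 factor, also overlapped at 152 and 102 CPM in SZCs and 102 and 136 CPM in DZCs. At an unadjusted p-value below 0.05 in edgeR's exact test, SZCs were higher for 2 genes of this list and DZCs for 3. The former were *EGR3* and *EGR2*, the latter gene at 2.497 and 0.474 CPM in SZCs and 0.187 and 0.179 CPM in DZCs (FDR 0.21), without overlap. *EGR2* too passed the filter through its SZC libraries. The others, *JUN*, *ATF3* and *IER3*, had both DZC libraries above both SZC libraries. *EGR2* and these 3 were picked after their values were seen. *JUN* was at 32.8 and 36.9 CPM in SZCs and 62.8 and 61.0 CPM in DZCs (FDR 0.24, edgeR). The median log2 fold change of the 10 genes was 0.69, with a range from −0.96 to 3.73.

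Genes that answer to cAMP, the messenger that induces the NR4A family in many cells, were listed separately. Of 7 such genes 6 were tested and none was called by edgeR's exact test, its quasi-likelihood test or DESeq2, with none at an unadjusted p-value below 0.05. *PER1*, which is a clock gene as well, was at 31.0 and 39.1 CPM in SZCs and 25.4 and 14.5 CPM in DZCs, and the zones did not overlap (log2 fold change 0.82 ± 0.43 (SE), FDR 0.60, edgeR). *PDE4B*, a phosphodiesterase that breaks cAMP down, was at 11.5 and 15.0 CPM in SZCs and 5.22 and 19.5 CPM in DZCs, with the DZC libraries on either side of the SZC libraries.

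The steroid receptors bind their hormone in the cytoplasm or nucleus and act as homodimers. Of 5 steroid receptor genes 3 were tested. *ESR1* (ENSBTAG00000007159), the oestrogen receptor alpha gene, was at 1.95 and 2.37 CPM in SZCs and 0.187 and 0.493 CPM in DZCs. The zones did not overlap, but the underlying counts were low, 43 and 55 in SZCs and 3 and 11 in DZCs, and the gene passed the filter through its SZC libraries. The log2 fold change was 2.61 ± 0.79 (SE), or 6.09-fold, at FDR 0.040 (edgeR exact test). This call held in 2 of the 7 other analyses, with FDRs from 0.033 to 0.34 over the 7, and it was lost without SZC replicate 1, SZC replicate 2 or DZC replicate 1. The log2 fold change ran from 2.13 without DZC replicate 1 to 3.51 without DZC replicate 2. *ESR2*, the oestrogen receptor beta gene, had at most 3 counts in any library, and *PGR*, the progesterone receptor gene, had a single count in 1 library.

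*NR3C1* encodes the glucocorticoid receptor. It was measured at 37.1 and 39.7 CPM in SZCs and at 17.3 and 27.8 CPM in DZCs. The SZC libraries were close together and above both DZC libraries, of which replicate 1 was the lower. The log2 fold change of 0.76 ± 0.39 (SE) did not pass the test (FDR 0.57, edgeR). *NR3C2*, the mineralocorticoid receptor gene, went the other way at 0.363 and 0.431 CPM in SZCs and 2.11 and 0.672 CPM in DZCs. Its zones did not overlap, but it rested on 8 and 10 counts in SZCs and 34 and 15 in DZCs (log2 fold change −1.78 ± 0.88 (SE), FDR 0.55, edgeR). This value was −0.75 without DZC replicate 1 and −2.38 without DZC replicate 2. Within a library, the count of *NR3C1* per count of *NR3C2* was 102 and 92.1 in SZCs and 8.18 and 41.4 in DZCs.

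The oestrogen-related receptors resemble the oestrogen receptor but are orphans that regulate mitochondrial genes. *ESRRA* was at 17.6 and 17.7 CPM in SZCs and 28.9 and 18.8 CPM in DZCs, with DZC replicate 1 high and DZC replicate 2 just above the SZC level (log2 fold change −0.43 ± 0.40 (SE), FDR 0.94, edgeR). *ESRRB* was at 0 in every library and *ESRRG* had at most 1 count.

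**Figure D3:**
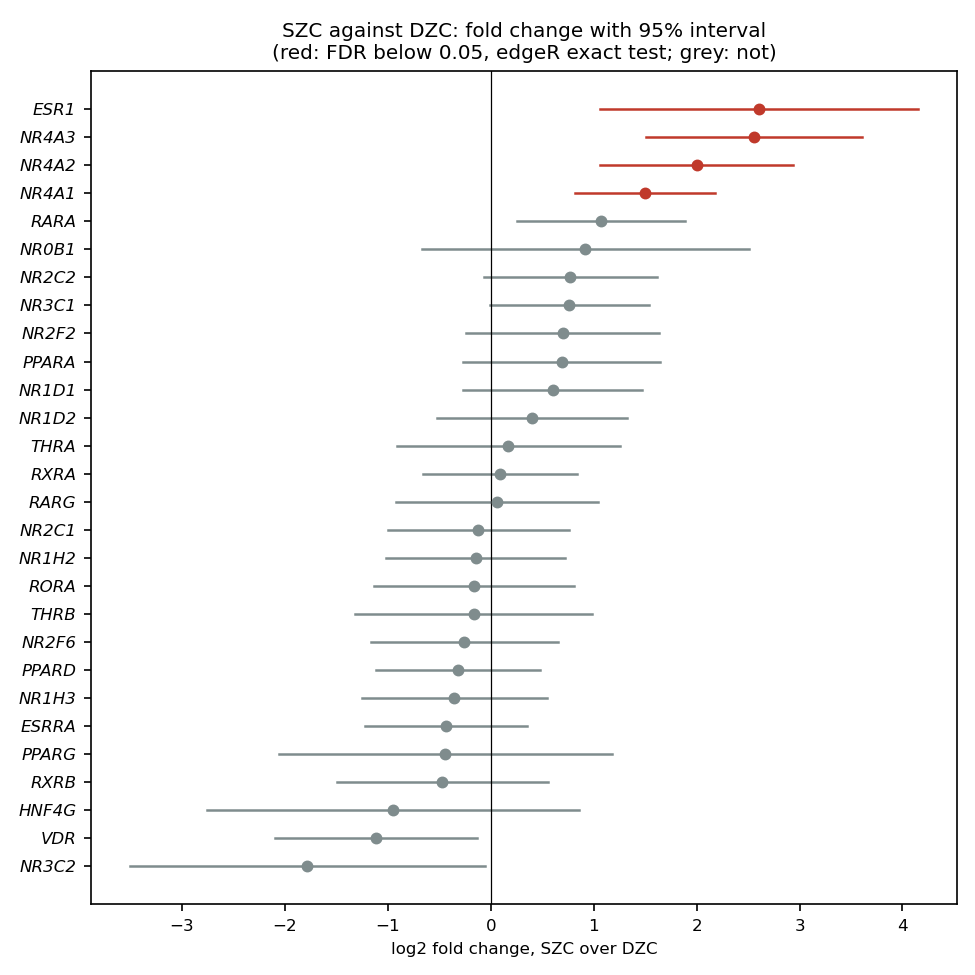
Log2 fold change of SZCs over DZCs for the 28 receptor genes tested, ordered by size, with 95% intervals from the gene-wise dispersion. The 4 called genes, in red, lie between 1.50 and 2.61, and of the other intervals, in grey, those of *RARA*, *VDR* and *NR3C2* leave out 0.

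Receptors for thyroid hormone, retinoic acid and vitamin D bind DNA as heterodimers with a retinoid X receptor. Of the 6 genes of this group 5 were tested and none was called, with 2 at an unadjusted p-value below 0.05 in edgeR's exact test, *RARA* and *VDR*. Neither was called by DESeq2 or by the quasi-likelihood test. *RARA*, the retinoic acid receptor alpha gene, was at 150.2 and 84.3 CPM in SZCs and 51.8 and 59.9 CPM in DZCs. The SZC replicates differed 1.78-fold and both were above the DZC libraries. Its log2 fold change was 1.07 ± 0.42 (SE) at FDR 0.21 (edgeR exact test).

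*RARG*, the receptor gamma gene that is prominent in cartilage, was at 351 and 322 CPM in SZCs and 453 and 193 CPM in DZCs. The 2 DZC libraries lay on either side of the SZC pair, and the log2 fold change was 0.06 with a 95% interval from −0.92 to 1.04. *RARB*, the receptor beta gene and itself a retinoic acid target, had 0 counts in both SZC libraries and 2 and 9 counts in DZCs, too few for the test. The count of *RARA* per count of *RARG* was 0.428 and 0.261 in SZCs and 0.114 and 0.310 in DZCs, with overlap.

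*VDR*, the vitamin D receptor gene, was at 9.85 and 13.9 CPM in SZCs and 34.8 and 16.7 CPM in DZCs. DZC replicate 1 was high, and DZC replicate 2 was only slightly above the higher SZC library. The log2 fold change was −1.11 ± 0.50 (SE), 2.16-fold higher in DZCs, at FDR 0.41 (edgeR exact test). It was −0.49 without DZC replicate 1 and −1.53 without DZC replicate 2. Per count of *RXRA*, its dimer partner, *VDR* was at 0.215 and 0.320 in SZCs and 0.676 and 0.514 in DZCs, again without overlap.

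*THRA*, the thyroid hormone receptor alpha gene, was at 73.3 and 53.8 CPM in SZCs and 83.3 and 29.6 CPM in DZCs. The DZC replicates differed 2.82-fold, and the zones overlapped (log2 fold change 0.17, 95% interval −0.91 to 1.26). *THRB*, the beta gene, was at 3.72 and 4.87 CPM in SZCs and 3.48 and 6.14 CPM in DZCs, and overlapped as well (log2 fold change −0.17, 95% interval −1.32 to 0.99). In the RefSeq annotation *THRA* overlaps the clock receptor gene *NR1D1*, so that reads counted without regard to strand cannot be told apart between the pair in the stretch they share.

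The receptors for fatty acids, sterols and bile acids regulate lipid uptake and use. Of these 6 genes 5 were tested, and none was called or reached an unadjusted p-value below 0.05 with edgeR's exact test, the quasi-likelihood test or DESeq2. *PPARA*, which drives fatty acid oxidation, was at 10.5 and 9.95 CPM in SZCs and 4.98 and 7.70 CPM in DZCs, with both SZC libraries higher (log2 fold change 0.69 ± 0.49 (SE), FDR 0.84, edgeR). *PPARD*, the broadly expressed member, was at 47.1 and 36.9 CPM in SZCs and 65.5 and 39.2 CPM in DZCs. *PPARG*, the adipogenic member, was low at 0.681 and 2.02 CPM in SZCs and 1.24 and 2.42 CPM in DZCs. The zones overlapped for both, with log2 fold changes of −0.32 and −0.44. Counts of *PPARA* per count of *PPARD* were 0.224 and 0.270 in SZCs and 0.0760 and 0.197 in DZCs, without overlap.

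The liver X receptors sense oxysterols and raise cholesterol efflux. *NR1H2*, the beta form, was at 81.3 and 64.4 CPM in SZCs and 106 and 55.0 CPM in DZCs. *NR1H3*, the alpha form, was at 14.3 and 17.4 CPM in SZCs and 26.2 and 14.2 CPM in DZCs. For both, DZC replicate 1 was the highest library and DZC replicate 2 the lowest. Their log2 fold changes were −0.15 and −0.35, each with an SE above 0.4. The bile acid receptor gene *NR1H4* was at 0 in every library.

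The clock receptors *NR1D1* and *NR1D2* (REV-ERB alpha and beta) repress the clock gene *ARNTL*, which the ROR receptors activate. *NR1D1* was at 27.7 and 48.1 CPM in SZCs and 29.9 and 20.1 CPM in DZCs, and *NR1D2* was at 24.3 and 46.5 CPM in SZCs and 21.2 and 32.3 CPM in DZCs. For each of the pair SZC replicate 2 was the highest library, the zones overlapped, and SZC replicate 2 exceeded SZC replicate 1 by 1.74-fold and 1.92-fold. The log2 fold changes were 0.60 ± 0.44 and 0.40 ± 0.47 (SE), with FDRs of 0.86 and 0.99 in edgeR's exact test. *RORA* was at 8.13 and 8.70 CPM in SZCs and 7.03 and 11.8 CPM in DZCs, with the DZC libraries on either side. *RORB*, a retinal and neural form, was at 0 throughout.

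Retinoid X receptors are the shared dimer partners of the hormone, retinoid and lipid receptors above. *RXRA* was at 45.9 and 43.4 CPM in SZCs and 51.4 and 32.4 CPM in DZCs, with a log2 fold change of 0.09 (95% interval −0.66 to 0.84). *RXRB* was at 93.1 and 70.3 CPM in SZCs and 162 and 64.6 CPM in DZCs, with a log2 fold change of −0.47 (95% interval −1.49 to 0.55). The DZC libraries again spanned the SZC libraries for both genes. *RXRG* had at most 2 counts.

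Among the orphan receptors of the NR2 group, 5 of 9 were tested and none was called by edgeR's exact test, its quasi-likelihood test or DESeq2, with none at an unadjusted p-value below 0.05. *NR2C2* (TR4) was at 34.4 and 30.4 CPM in SZCs and 13.5 and 24.3 CPM in DZCs, and *NR2F2* (COUP-TFII), a mesenchymal regulator, at 9.49 and 11.2 CPM in SZCs and 5.29 and 7.39 CPM in DZCs. For both, the SZC libraries lay above the DZC libraries, with log2 fold changes of 0.77 ± 0.43 and 0.70 ± 0.48 (SE) and FDRs of 0.66 and 0.82 in edgeR's exact test. *NR2C1* (TR2), at 12.3 to 20.7 CPM over the 4 libraries, and *NR2F6*, at 10.6 to 19.0 CPM, overlapped between zones. *HNF4G*, an intestinal and renal form, was near the lower limit at 9 and 14 counts in SZCs and 6 and 35 counts in DZCs.

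Some of the family lay close to that limit. *NR2F1* (COUP-TFI) had 3 and 7 counts in SZCs and 1 count in DZC replicate 1, but 61 counts in DZC replicate 2. That library also stood apart by *ALPL*, *IBSP* and *SP7*, while *BGLAP* and *DMP1* did not share their rise. The part of other cell types in the *NR2F1* value was not tested. *NR2E1*, a neural stem cell receptor, had 7, 2, 2 and 0 counts, and *NR6A1*, a germ cell receptor, had 6, 7, 7 and 9 counts, over SZC replicates 1 and 2 and DZC replicates 1 and 2. With *RARB* these were the 4 receptors above 3 counts that were not tested.

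No count was found in any library for 7 receptors, *NR1H4*, *RORB*, *HNF4A*, *NR2E3*, *ESRRB*, *NR5A1* and *NR0B2*. Another 7 never exceeded 3 counts, *NR1I2*, *NR1I3*, *RXRG*, *ESR2*, *ESRRG*, *PGR* and *NR5A2*. These include the xenobiotic receptors *NR1I2* and *NR1I3* and the hepatic receptor *HNF4A*, the photoreceptor gene *NR2E3*, and *NR5A1* and *NR5A2*, which regulate steroid and bile acid synthesis. *NR0B1*, which lacks the usual DNA-binding domain and represses other receptors, was detected at 19 and 21 counts in SZCs and 11 and 6 counts in DZCs (log2 fold change 0.92, 95% interval −0.67 to 2.505).

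The DZC pair was the less uniform. DZC replicate 1 lay above DZC replicate 2 for 14 of the 28 receptors tested, and for 6294 of all 12857 genes tested, a balance that the scaling itself tends to set. The gap was widest for *HNF4G*, 4.20-fold higher in replicate 2, and for *NR3C2*, 3.15-fold higher in replicate 1. Without DZC replicate 2 the test called 10 receptors, adding *RARA*, *NR2C2* and *NR3C1* higher in SZCs and *VDR*, *RXRB* and *NR3C2* higher in DZCs. The same fit called 20.7% of all genes tested, so that the receptors' count stood beside a much raised background. Without DZC replicate 1 it called 5 receptors, beside 6.67% of all genes, with the NR4A genes kept and *ESR1* lost. *THRA* was then called higher in SZCs, with a log2 fold change of 1.11 in place of 0.17, and *NR2F1*, which passed the filter in this fit through DZC replicate 2 alone, was called higher in DZCs with a log2 fold change of −3.60 (FDR 0.00069). In these fits the single library left in a zone is assumed to vary as the other pair does.

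**Figure D4:**
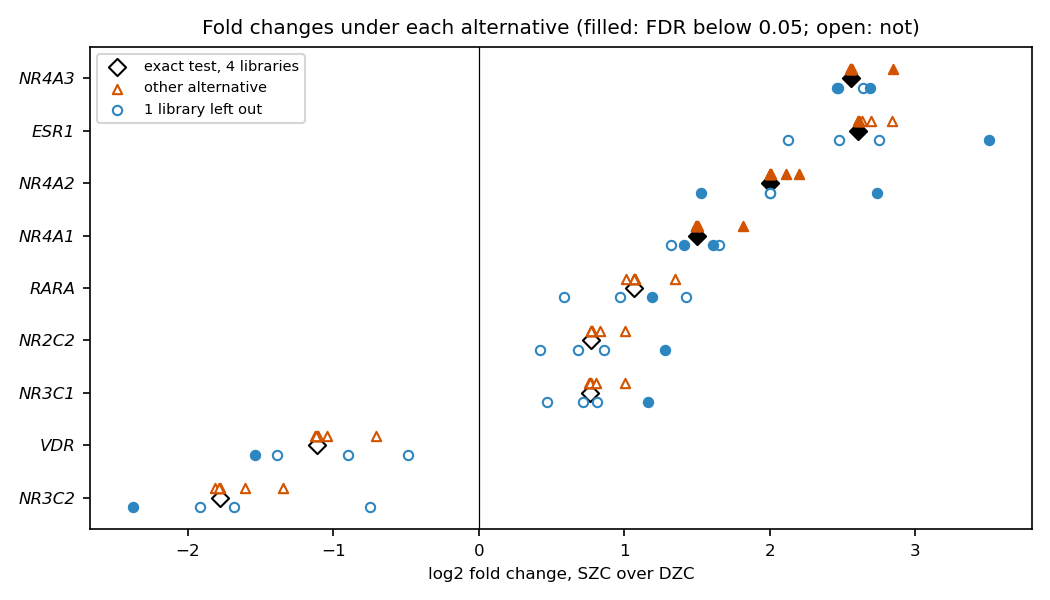
Log2 fold changes of SZCs over DZCs for 9 receptor genes, with a diamond for the exact test on all 4 libraries, triangles for the 7 other analyses and circles for fits with 1 library left out. Filled symbols mark an FDR below 0.05 and may cover open ones, and no symbol of these 9 genes crosses 0.

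The genes around the receptors were read from lists of coregulators, chaperones, ligand metabolism and known targets, together with the immediate early and cAMP lists above. These lists were chosen with earlier results of these data known, and their counts are descriptions. Of 123 listed genes 118 were in the table and 95 were tested. The test called 7, or 7.37%, beside 2.93% of all genes tested, and all 7 were higher in SZCs. Without the immediate early and cAMP genes that stand in no other list, 6 of 81 were called, the 7th being *EGR3*. Both SZC libraries lay above both DZC libraries for 30 of the 95, where 21.1% of all genes did so, and below them for 13, where 20.5% did so. Most of the 7 calls were lost without SZC replicate 1 or without SZC replicate 2, fits that called far fewer of all genes as well. The median log2 fold change of the listed genes tested was 0.09. It was 0.05 without SZC replicate 1 and 0.04 without SZC replicate 2.

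Coactivators open chromatin at target genes, and corepressors close it. None of 13 coactivators tested was called by edgeR's exact test, its quasi-likelihood test or DESeq2, and none had an unadjusted p-value below 0.05 in the exact test. *CREBBP*, an acetyltransferase, was at 160 and 133 CPM in SZCs and 85.1 and 97.2 CPM in DZCs, and its relative *EP300* at 105 and 94.7 CPM in SZCs and 49.8 and 77.3 CPM in DZCs. The zones did not overlap for either, and the log2 fold changes of 0.69 ± 0.35 and 0.65 ± 0.38 (SE) had FDRs of 0.56 and 0.71 in edgeR's exact test. Of 9 corepressors 1 was called, beside 2.93% of all genes. This was *HR*, a corepressor of the thyroid hormone and vitamin D receptors that is itself a thyroid hormone target. *HR* is also among the regulators that the study lists as higher in SZCs. It was at 67.1 and 48.3 CPM in SZCs and 27.1 and 16.2 CPM in DZCs, with no overlap (log2 fold change 1.42 ± 0.42 (SE), FDR 0.036, edgeR). *NCOR1* and *TBL1X*, core parts of the corepressor complex, had log2 fold changes of 0.32 and −0.19.

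None of the 6 chaperones of the steroid receptors, such as *HSP90AB1* and *HSP90AA1* with log2 fold changes of 0.06 and −0.30, was called by edgeR's exact test, its quasi-likelihood test or DESeq2, with none at an unadjusted p-value below 0.05. Of 14 genes of retinoid metabolism 9 were tested and none was called by the same 3 tests, with 1 higher in SZCs and 2 higher in DZCs at an unadjusted p-value below 0.05 in the exact test. *DHRS3*, which turns retinaldehyde back to retinol and is induced by retinoic acid, was at 45.998 and 48.9 CPM in SZCs and 88.4 and 89.1 CPM in DZCs. The replicates were nearly equal and the zones separate, but the log2 fold change of −0.90 ± 0.33 (SE) reached only FDR 0.14 (edgeR exact test). *RBP4*, the retinol carrier, was at 82.3 and 82.2 CPM in SZCs and 145 and 69.1 CPM in DZCs. In hormone and sterol metabolism 7 of 20 listed genes were tested and none was called by the 3 tests, with 1 at an unadjusted p-value below 0.05. This was *CYP27A1*, a sterol hydroxylase picked out after its values were seen, at 6.22 and 8.05 CPM in SZCs and 2.24 and 3.22 CPM in DZCs, without overlap (log2 fold change 1.38 ± 0.55 (SE), FDR 0.26, edgeR). *CYP7B1*, a hydroxylase of oxysterols and steroids, was at 3.77 and 7.15 CPM in SZCs and 4.54 and 8.87 CPM in DZCs, with overlap (log2 fold change −0.30 ± 0.63 (SE)).

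**Figure D5:**
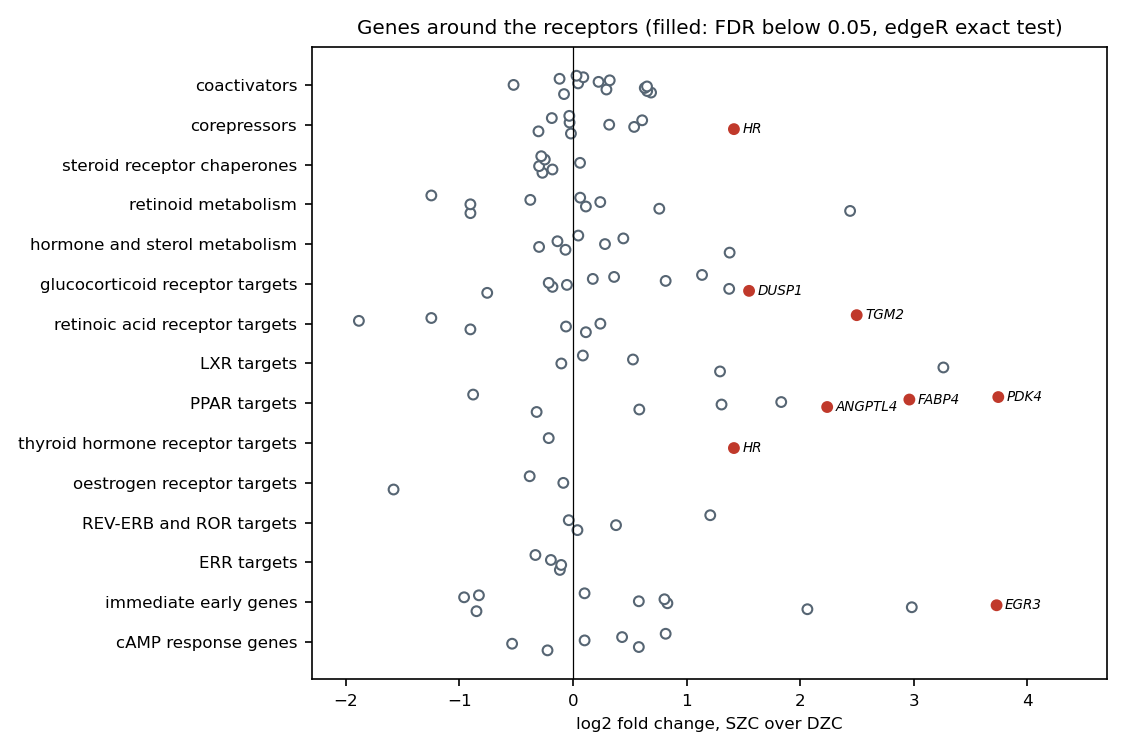
Log2 fold change of SZCs over DZCs for the genes around the receptors, one row per list and one point per tested gene, with vertical position within a row only spreading the points. The 7 called genes, filled in red and named, all lie above 1.4, and *HR* appears in 2 lists.

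Targets of the peroxisome proliferator-activated receptors (PPARs), which regulate fatty acid use, had the most calls of the target lists. Of 9 such genes 8 were tested and 3 were called, all higher in SZCs, beside 2.23% of all genes called in that direction. As the lists were chosen with earlier results of these data known, this count is a description only. The fold change was above 0 for 6 and below 0 for 2, with a median of 1.57 on the log2 scale beside −0.04 over all genes. *PDK4*, the kinase that turns off pyruvate dehydrogenase, was at 10.1 and 6.98 CPM in SZCs and 0.435 and 0.806 CPM in DZCs, where it had 7 and 18 counts, and it passed the filter through its SZC libraries. *FABP4*, a fatty acid carrier of fat, endothelial cells and macrophages, was at 12.2 and 9.43 CPM in SZCs and 1.18 and 1.57 CPM in DZCs. *ANGPTL4*, an inhibitor of lipoprotein lipase, was at 13.1 and 10.0 CPM in SZCs and 1.68 and 3.18 CPM in DZCs. For all 3 the zones were far apart, by 13.4-fold, 7.78-fold and 4.71-fold, with FDRs of 1.2e-05, 3.3e-05 and 0.0070 in edgeR's exact test. The quasi-likelihood test gave them FDRs from 0.129 to 0.238, and the PPAR genes themselves were not called. *PLIN2*, the lipid droplet protein gene, singled out after its values were seen, was at 464 and 295 CPM in SZCs and 939.7 and 457 CPM in DZCs, with overlap and a log2 fold change of −0.88 ± 0.51 (SE).

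Markers of cells in which these targets are also active were read in the same libraries. Of the adipocyte markers *ADIPOQ* was not found in the count table, and *LEP* and *CIDEC* had at most 1 count. *PLIN1* overlapped between zones at 5.54 and 5.73 CPM in SZCs and 5.60 and 4.26 CPM in DZCs. The summed level of the 5 endothelial markers was 5.31 and 10.6 CPM in SZCs and 3.86 and 7.79 CPM in DZCs, with *CDH5* and *KDR* at 0 in DZC replicate 1. That of the 5 macrophage and leukocyte markers was 17.8 and 29.0 CPM in SZCs and 6.78 and 13.4 CPM in DZCs, with *PTPRC* at 0 in DZC replicate 1 and at most 14 counts elsewhere. The endothelial sums overlapped between zones, while the macrophage sums and the fibroblast sums did not. Their part in the differences of the receptors and targets was not tested.

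Of the glucocorticoid receptor targets all 10 were tested and 1 was called, beside 2.93% of all genes. This was *DUSP1*, a phosphatase that shuts off MAP kinases and is also an immediate early gene. It was at 83.4 and 87.1 CPM in SZCs and 20.6 and 37.6 CPM in DZCs (log2 fold change 1.55 ± 0.41 (SE), FDR 0.013, edgeR). Both DZC libraries were well below the SZC pair, and the call was lost with scaling by library totals (FDR 0.079) and under the quasi-likelihood test (FDR 0.27). *ERRFI1*, an inhibitor of the EGF receptor, was at 345 and 169.6 CPM in SZCs and 66.9 and 131 CPM in DZCs (FDR 0.22), and *CEBPD*, a transcription factor of the acute response, overlapped at 172 and 90.0 CPM in SZCs and 270.5 and 172 CPM in DZCs. The median log2 fold change of the list was 0.27.

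The fold changes of the retinoic acid receptor targets lay on both sides of 0, and the only call in edgeR's exact test was higher in SZCs. Of 8 such genes 7 were tested and 1 was called, beside 2.93% of all genes. At an unadjusted p-value below 0.05 in edgeR's exact test, SZCs were higher for 1 and DZCs for 3. Of the 12857 genes tested, SZCs were higher for 782 and DZCs for 387 at that level. *TGM2*, a transglutaminase that crosslinks proteins, was at 28.5 and 16.0 CPM in SZCs and 4.73 and 3.18 CPM in DZCs (log2 fold change 2.497 ± 0.51 (SE), FDR 0.00037, edgeR). *RARRES2*, which encodes chemerin, was at 71.6 and 73.7 CPM in SZCs and 411 and 125 CPM in DZCs. Both DZC libraries were higher, replicate 1 by far, and the log2 fold change of −1.89 ± 0.59 (SE) missed the threshold in edgeR's exact test (FDR 0.073) and passed it in DESeq2 (FDR 0.028). It was −0.78 without DZC replicate 1 and −2.49 without DZC replicate 2.

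The remaining target lists held *HR* as their only call in edgeR's exact test. The liver X receptor targets *SREBF1* and *LPCAT3* had log2 fold changes of 0.09 and −0.10, and both were in overlap between zones. Of the 5 genes of that list tested, 4 were above 0, with a median of 0.53 beside −0.04 over all genes tested. Both SZC libraries lay above both DZC libraries for 3 of them, where 21.1% of all genes tested did so. At an unadjusted p-value below 0.05 in edgeR's exact test, these lists held 1 more gene each for the liver X and clock receptors, the cholesterol transporter gene *ABCG1* and the clock gene *NPAS2*, picked out after their values were seen. *ABCG1* had 33 and 13 counts in SZCs and 1 and 3 counts in DZCs (FDR 0.073, edgeR), and it passed the filter through its SZC libraries. *NPAS2* had a log2 fold change of 1.21 ± 0.52 (SE, FDR 0.33, edgeR). Of the 3 oestrogen receptor targets tested, *IGFBP4* and *XBP1* had log2 fold changes of −0.09 and −0.38, beside 2.61 for *ESR1*. The other, *CXCL12*, a chemokine gene picked out after its values were seen, had 38 and 79 counts in SZCs and 6 and 334 counts in DZCs, with a log2 fold change of −1.58 that became −2.54 without DZC replicate 1 and 2.78 without DZC replicate 2. The clock receptor targets *CRY1* and *CLOCK* had log2 fold changes of −0.04 and 0.38, and the oestrogen-related receptor targets *IDH3A* and *CS*, which encode mitochondrial enzymes, had −0.33 and −0.10. The thyroid hormone target *KLF9* had −0.21. No vitamin D receptor target could be tested, and *CYP24A1*, the vitamin D hydroxylase that the receptor induces strongly, had 0 and 1 counts in SZCs and 0 and 2 counts in DZCs.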

How the data were processed

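RNA-Seq libraries were prepared by the authors with the SMART-Seq v4 kit and read from a single end for 75 bases. Per the labels and the paper's methods, the authors aligned reads with STAR 2.5.2b to UMD 3.1 and deposited raw counts per gene, counted without regard to strand. A second deposited table holds the authors' own fold changes and FDRs and was not used. ATAC-Seq data were not analysed here.

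Libraries were grouped by their labels, and table columns were matched to them by name. Counts were scaled by TMM in edgeR 4.0.16 (R 4.3.3), filtered by filterByExpr and compared by the exact test over all genes, as the study's methods state except for the filter. Standard errors come from the gene-wise dispersion. The 7 other analyses used DESeq2 1.42.0, edgeR's quasi-likelihood test with or without a replicate block, a minimum of over 1 CPM (2 or more libraries) or no minimum, and scaling by DESeq2's size factors or by totals alone. Fits were repeated leaving out each library. Scripts were tested on simulated data. Members and gene lists were chosen with earlier results of these data known. Named are all receptors, called list genes, the 2 highest genes by mean CPM of lists with fewer than 2 calls, marker genes and *CREB5*, and genes outside this rule are marked as picked after their values were seen. 1 gene of this rule is not reported here. Neighbouring genes were read from RefSeq (ARS-UCD2.0), in which all 46 symbols matched. Replicates differed beyond sampling noise (chi-square per degree of freedom 50.5 for SZCs and 245 for DZCs), so none was counted as a duplicate.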

Additional observations from a re-analysis of the deposited data

How the results depend on the processing

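Of the 4 receptors called, 3 to 4 were called under 6 of the 7 other analyses, and all calls were higher in SZCs. The quasi-likelihood test of edgeR called 0 receptors (6 at an unadjusted p-value below 0.05), 0 of 12857 genes (1126 at an unadjusted p-value below 0.05) and 0 genes of the pathway lists (21 at an unadjusted p-value below 0.05), where DESeq2 called 3, 403 and 8. With 1 library left out the receptors called ranged from 0 to 10, all genes called from 58 to 2725 and pathway genes called from 0 to 29. The lowest counts came without an SZC library and the highest without DZC replicate 2. The cause was not tested. *ESR1* lost its call under the quasi-likelihood test (FDR 0.34), DESeq2 (0.12), no filter (0.070), library totals alone (0.11) and the replicate block (0.084).

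Library totals alone moved all genes by a median of 0.30 on the log2 scale towards SZCs and left 86.7% of calls higher in SZCs in place of 76.1%. Uncalled receptors near 0 changed sign with it, *THRB* to 0.069, *PPARD* to 0.053, *NR1H2* to 0.24, *NR1H3* to 0.034, *RORA* to 0.075, *NR2C1* to 0.12 and *NR2F6* to 0.10. Leaving out 1 library changed the sign of the log2 fold change of more uncalled receptors, which ranged from −0.38 to 1.11 for *THRA*, −0.51 to 0.32 for *THRB*, −0.41 to 0.80 for *RARG*, −1.42 to 0.14 for *PPARG*, −0.63 to 0.10 for *PPARD*, −0.53 to 0.41 for *NR1H2*, −0.71 to 0.16 for *NR1H3*, −0.14 to 0.79 for *NR1D2*, −0.48 to 0.28 for *RORA*, −0.19 to 0.47 for *RXRA*, −0.97 to 0.34 for *RXRB*, −1.61 to 0.45 for *HNF4G*, −0.44 to 0.32 for *NR2C1* and −0.57 to 0.10 for *NR2F6*. *HNF4G*, *NR3C2* and *NR0B1* gave no value under the filter of more than 1 CPM.

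Adding a replicate block to the quasi-likelihood fit gave 347 called genes, of which 277 were shared with the exact test, and 3 called receptors, the NR4A genes. It also called *EGR1* (FDR 0.042), which was higher in SZCs within each replicate number. Deviations of same-numbered libraries correlated at 0.42 over all genes tested and 0.33 over the receptors, and per the methods the deep slice came from the core that gave the superficial one, but neither labels nor methods tie the numbers to a joint or day. At these depths receptors at 3 counts or fewer cannot be shown.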
